A study of Mus musculus with 12 samples.

Results

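The levels of 38 genes of DNA replication and mitosis were compared between totipotent potential stem cells (TPS cells) and extended pluripotent stem cells (EPS cells) of the mouse. These genes were taken from a given list of 18 genes that act in S phase and 20 that act in mitosis, and all 38 were found by symbol among the 55401 genes of the count files. Each passed the filter on low counts that left 17468 genes for the test. RNA was sequenced from 3 TPS lines and 3 EPS lines, with 2 technical replicates of each line, which gave 12 libraries, and the replicates of a line were summed. Per the labels, TPS cells grew on feeder cells in VCED medium and EPS cells grew on feeder cells in LCDM medium. The medium that the study describes for TPS cells is named CPEC and holds CD1530, an agonist of the retinoic acid receptor RARγ, VPA, a histone deacetylase inhibitor, EPZ004777, a DOT1L inhibitor, and a GSK3 inhibitor of the CHIR series. Its methods give a choice of basal media for TPS cells, 1 of which was said to promote proliferation, and the sources used here do not say which was used for the sequenced lines. Nor do they say whether these TPS lines came from EPS cells, ES cells or 2-cell embryos, or whether lines of the same number are related. The feeders of TPS cells were mouse embryonic fibroblasts whose division had been stopped with mitomycin C.

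Cells copy their DNA in S phase and divide in mitosis, and most of the genes described here are transcribed in waves that follow these phases. S-phase genes are driven mainly by E2F factors, and mitosis genes are driven mainly by the MuvB complex with B-MYB or FOXM1, which acts through the cell cycle homology region (CHR) with NF-Y bound at CCAAT boxes nearby. Mouse pluripotent stem cells divide fast, have a short G1 phase and express these genes at high levels. In RNA from a mixed population, a smaller share of cells in a phase, a smaller share of dividing cells and less RNA of the gene per cell cannot be told apart.

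The whole set leaned to lower levels in TPS lines, by small amounts. Of the 38 genes, 6 fell in TPS cells and 0 rose at an adjusted p under 0.05 (edgeR's quasi-likelihood test with Benjamini-Hochberg adjustment over all 17468 tested genes). The genes that fell were Pola1, Mcm10, Top2a, Bub1b, Kif11 and Birc5. The 6 genes are 15.8% of the set, beside 7.34% of all tested genes that fell and 14.4% that rose. The mean levels of the 38 genes ran from 38.5 to 729 CPM (counts scaled to library totals, here corrected for composition with TMM factors). Among the 5139 tested genes with a mean level in that range, 675 fell (13.1%) and 316 rose. The share that fell among the replication and mitosis genes was near that background. At an unadjusted p under 0.05 the test gave 16 of the 38 genes as lower and 0 as higher. The share of all tested genes at that threshold was not counted, so these counts have no background beside them. DESeq2 called 3 genes lower and 0 higher. With library size alone as the scaling, or with the line number as a replicate block, 1 gene was called lower, Pola1.

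The direction was shared more widely than the calls. The log2 fold change (TPS minus EPS) was below 0 for 34 of the 38 genes, which is 89.5% (32 of 38 with library size alone as the scaling), against 50.2% of all tested genes and 67.0% of the genes in the same range of level. Its median was -0.32 over the 38 genes, -0.15 over the genes in the same range and -0.00 over all tested genes. The medians of the S-phase and mitosis genes were -0.30 and -0.34. With library size alone as the scaling they were -0.15 and -0.19, beside 0.14 over all tested genes. On the TMM scale (library totals corrected for composition), used for all CPM levels given here, 19 of the 38 genes had every TPS line below every EPS line, which is 50%. In 0 genes every TPS line was above every EPS line. Fewer genes had every TPS line below with library size alone as the scaling, where Mcm5, Mcm7, Ccna2, Ccnb2 and Aurkb, among others, overlapped. Cdc6 and Cdk1 then had every TPS line above every EPS line. Over all tested genes on the TMM scale, every TPS line was below every EPS line in 19.1% of genes and above in 23.6%. In the same range of level 29.7% of genes had every TPS line below every EPS line, and 585 of 5139 had every TPS line above. These shares describe the list and were not tested.

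**Figure D1:**
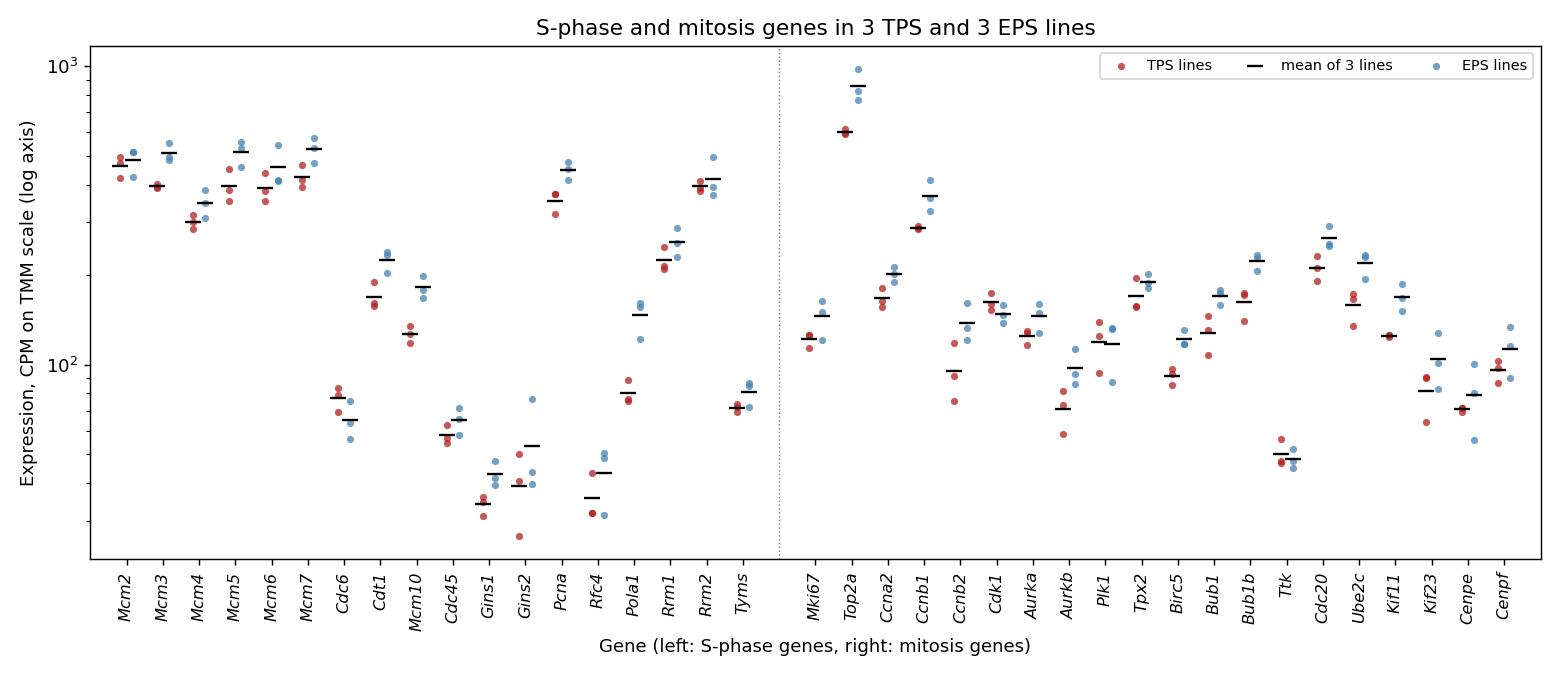
Levels of the 18 S-phase genes (left) and the 20 mitosis genes (right) in each line, in CPM on the TMM scale with a log axis; red points are the 3 TPS lines, blue points the 3 EPS lines and black bars the group means. In 19 of the 38 genes all TPS points lie below all EPS points, with clear gaps for Pola1 and Mcm10 and mixed points for Cdc6, Cdk1, Plk1 and Ttk.

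Promoter sequences are shown for the 2 genes of each phase with the lowest p among those with a promoter window in the RefSeq table (build GRCm38.p6), which were Pola1 and Mcm10 for S phase and Top2a and Kif11 for mitosis. Each run reads 5′ to 3′ on the strand of the gene, from 250 bases before the RefSeq start to 50 bases after it. Capitals mark matches to 3 motifs: E2F motifs (TTTCCCGC, TTTGGCGC, TTTCGCGC or TTTGCCGC), CHR motifs (TTTGAA or TTCGAA) and the CCAAT box bound by NF-Y (CCAAT), each read on either strand, so that GCGCCAAA, TTCAAA and ATTGG are the reverse forms of TTTGGCGC, TTTGAA and CCAAT. The letters of the motifs did not overlap in these runs.
Pola1 (chrX:93632106-93632405, minus strand): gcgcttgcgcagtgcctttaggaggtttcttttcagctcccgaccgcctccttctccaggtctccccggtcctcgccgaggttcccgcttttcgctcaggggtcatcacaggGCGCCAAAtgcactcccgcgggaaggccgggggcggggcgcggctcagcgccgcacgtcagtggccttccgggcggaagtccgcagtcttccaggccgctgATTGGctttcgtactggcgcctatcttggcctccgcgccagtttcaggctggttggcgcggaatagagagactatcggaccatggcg
Mcm10 (chr2:5012742-5013041, minus strand): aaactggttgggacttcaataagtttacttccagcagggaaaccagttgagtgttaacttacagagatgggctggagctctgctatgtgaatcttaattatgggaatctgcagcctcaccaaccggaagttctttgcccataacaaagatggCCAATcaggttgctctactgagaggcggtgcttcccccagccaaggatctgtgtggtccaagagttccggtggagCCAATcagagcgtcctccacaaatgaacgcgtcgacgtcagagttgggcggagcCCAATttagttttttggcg
Top2a (chr11:99024140-99024439, minus strand): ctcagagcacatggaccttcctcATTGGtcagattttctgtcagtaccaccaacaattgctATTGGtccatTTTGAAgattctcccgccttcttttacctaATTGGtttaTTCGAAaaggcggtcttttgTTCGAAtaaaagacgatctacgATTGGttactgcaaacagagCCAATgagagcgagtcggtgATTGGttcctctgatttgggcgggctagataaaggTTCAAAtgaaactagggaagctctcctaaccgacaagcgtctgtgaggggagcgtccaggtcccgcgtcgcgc
Kif11 (chr19:37376132-37376431, plus strand): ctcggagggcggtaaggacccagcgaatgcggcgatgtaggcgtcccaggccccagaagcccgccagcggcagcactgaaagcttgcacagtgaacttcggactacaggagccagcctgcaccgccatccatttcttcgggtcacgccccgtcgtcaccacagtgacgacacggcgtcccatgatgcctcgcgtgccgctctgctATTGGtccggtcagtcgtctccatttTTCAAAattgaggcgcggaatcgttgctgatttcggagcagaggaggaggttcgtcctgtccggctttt

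The Pola1 window held 1 E2F motif, 138 to 131 bases before the start, and 1 CCAAT box. In the Mcm10 window there were 3 CCAAT boxes and no E2F or CHR motif in these letters. The Top2a window was the densest of the 4 shown, with 6 CCAAT boxes and 4 CHR motifs, the last of them 23 to 18 bases before the start. Kif11 had a CHR motif 19 to 14 bases before the start and a CCAAT box 45 to 41 bases before it.

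The initiation and licensing genes load the replicative helicase at origins and switch it on. Mcm2, Mcm3, Mcm4, Mcm5, Mcm6 and Mcm7 encode the ring of this helicase. All 6 had log2 fold changes below 0, from -0.38 for Mcm5 to -0.07 for Mcm2, although that of Mcm2 became 0.08 with library size alone as the scaling. At the threshold of edgeR's test 0 of 6 were called, beside 7.34% of all tested genes and 13.1% in the same range of level that fell. At an unadjusted p under 0.05, for which no background was counted, 2 were lower and 0 higher. DESeq2 called 0 of 6. In TPS lines 1 to 3 the level of Mcm3 was 393, 402 and 390.4 CPM, and in EPS lines 1 to 3 it was 553, 483 and 495 CPM. The TPS lines lay close together and below every EPS line, and the log2 fold change was -0.37 (95% interval -0.64 to -0.10, adjusted p = 0.060 in edgeR's test). Mcm5 (354, 452 and 383 CPM in TPS lines and 557, 458 and 531 CPM in EPS lines) and Mcm7 (392, 467 and 415 CPM in TPS lines and 573, 474 and 532 CPM in EPS lines) were also separated, each with TPS lines below EPS lines. Mcm2, Mcm4 and Mcm6 overlapped between the groups. Mcm2 had 495, 474 and 422 CPM in the TPS lines (1 to 3) and 516, 426 and 516 CPM in the EPS lines (1 to 3). Its interval, -0.38 to 0.25 on the log2 scale, holds changes in both directions.

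Mcm10 helps to activate the loaded helicase and to bring in DNA polymerase alpha. The Mcm10 levels were 127, 118 and 135 CPM in TPS lines 1 to 3 and 178, 167 and 199 CPM in EPS lines 1 to 3. Every TPS line was below every EPS line, and Mcm10 (ENSMUSG00000026669.14, chr2:4989714-5012791, GRCm38) was 30.1% lower in TPS cells, with a log2 fold change of -0.52 (SE 0.13, adjusted p = 0.026). The Mcm10 call was kept under 8 of 10 other settings and in 2 of 6 fits that left out a line. Cdt1, which recruits the helicase to origins in G1, was measured at 157, 189 and 160.2 CPM in TPS lines and 238, 233 and 203 CPM in EPS lines. The groups did not overlap, and the log2 fold change was -0.41 (adjusted p = 0.065). Cdc6, its partner in loading, had the highest log2 fold change of the 38 genes, 0.24 (95% interval -0.11 to 0.60, adjusted p = 0.29). Cdc6 was measured at 78.9, 69.3 and 83.2 CPM in TPS lines 1, 2 and 3 and at 56.2, 75.7 and 63.6 CPM in EPS lines 1, 2 and 3. The groups overlapped, since EPS line 2 was above TPS line 2.

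Cdc45 and the GINS complex bind the helicase as it fires. Gins1 was measured at 31.1, 36.1 and 34.8 CPM in TPS lines and 47.6, 39.5 and 41.6 CPM in EPS lines, with no overlap and a log2 fold change of -0.34 (adjusted p = 0.14). Cdc45 overlapped between the groups, with a log2 fold change of -0.16 (95% interval -0.48 to 0.15). In TPS lines 1 to 3 the level of Gins2 was 26.7, 50.04 and 40.6 CPM, and in EPS lines 1 to 3 it was 76.6, 39.8 and 43.6 CPM. EPS line 1 alone stood above the TPS lines, and the SE of the Gins2 log2 fold change, 0.31, was the largest of the 38 genes. Reads of Gins2 are also uncertain, because 67.3% of its exon bases lie under exons of Gse1 on the opposite strand and the use of strand in counting is not given in the sources used here.

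At the fork, Pola1, the catalytic subunit of DNA polymerase alpha, makes the first stretch of DNA on each RNA primer. It showed the largest change of the 38 genes in either direction. Pola1 had 88.8, 76.8 and 75.8 CPM in the TPS lines (1 to 3) and 156, 122 and 160.3 CPM in the EPS lines (1 to 3). The highest TPS line stood well below the lowest EPS line. Pola1 (ENSMUSG00000006678.6, chrX:93304767-93632155, GRCm38) was 44.9% lower in TPS cells (95% interval 29.7% to 56.8%), with a log2 fold change of -0.86 (SE 0.15, adjusted p = 0.0090). It was the 1 gene of the set that stayed below the threshold under all 10 other settings of the processing and under each of the 6 fits that left out a line, where its log2 fold change lay between -0.997 and -0.713 and its highest adjusted p was 0.038.

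Pola1 lies on the X chromosome. Among tested X-linked genes in the same range of level, the median log2 fold change was -0.33 over 153 genes and 22.9% fell, beside -0.15 over 4978 autosomal genes, of which 12.9% fell. Of those X-linked genes, 18 had a lower log2 fold change than Pola1, as did 247 of the 4978 autosomal genes. The part of the chromosome in the value of Pola1 was not tested.

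Pcna, the sliding clamp that holds polymerases on DNA, had the highest level per length of the 38 genes, with a mean of 437 TPM (counts per exon length, scaled to a fixed total) over the 6 lines. The Pcna levels were 318, 371 and 372 CPM in TPS lines 1 to 3 and 476, 415 and 453 CPM in EPS lines 1 to 3. The groups did not overlap, and the log2 fold change was -0.34 (adjusted p = 0.096). A near-identical pseudogene, Pcna-ps2, held 12057 counts beside 83399 for Pcna, so reads may have been split between them. Rfc4, a subunit of the clamp loader, overlapped between the groups (31.9, 43.3 and 31.8 CPM in TPS lines and 50.4, 31.4 and 48.5 CPM in EPS lines), with EPS line 2 as low as the TPS lines.

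The genes of nucleotide supply had the median closest to 0 among the S-phase roles, -0.18 on the log2 scale. Rrm1 and Rrm2, the subunits of ribonucleotide reductase, and Tyms, which makes thymidylate, had log2 fold changes of -0.20, -0.08 and -0.18, and all 3 overlapped between the groups. The value of Rrm2 became 0.06 with library size alone as the scaling. Rrm2 was measured at 382, 389.7 and 413 CPM in TPS lines 1, 2 and 3 and at 392, 496 and 368 CPM in EPS lines 1, 2 and 3. EPS line 2 was the highest and EPS line 3 the lowest of all lines, so the TPS lines lay within the spread of the EPS lines. The 95% interval for Rrm2 ran from -0.42 to 0.26. In the S-phase set as a whole, 2 of 18 genes fell (11.1%, beside 7.34% of all tested genes and 13.1% in the same range of level), and 8 of 18 had every TPS line below every EPS line (44.4%, beside 19.1% and 29.7%). The median log2 fold change was -0.30.

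In the mitosis set, 4 of 20 genes fell (20%) and 11 of 20 had every TPS line below every EPS line (55%), to be read beside the same background shares, and the median log2 fold change was -0.34. The difference between the sets was not tested. Top2a, the topoisomerase that untangles sister chromatids, had the highest CPM of the 38 genes. In TPS lines 1 to 3 the level of Top2a was 592, 616 and 596 CPM, and in EPS lines 1 to 3 it was 769.7, 974 and 826 CPM. The TPS lines lay close together, all below the lowest EPS line. Top2a (ENSMUSG00000020914.17, chr11:98992943-99024189, GRCm38) was 29.8% lower in TPS cells, with a log2 fold change of -0.51 (SE 0.13, adjusted p = 0.033). The Top2a call was kept under 7 of 10 other settings and in 1 of 6 fits that left out a line. Mki67, which encodes the Ki-67 protein that coats mitotic chromosomes, was measured at 126, 126 and 113 CPM in TPS lines and 121, 163 and 150.5 CPM in EPS lines. EPS line 1 was as low as the TPS lines, and the log2 fold change of Mki67 was -0.25 (95% interval -0.59 to 0.08).

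**Figure D2:**
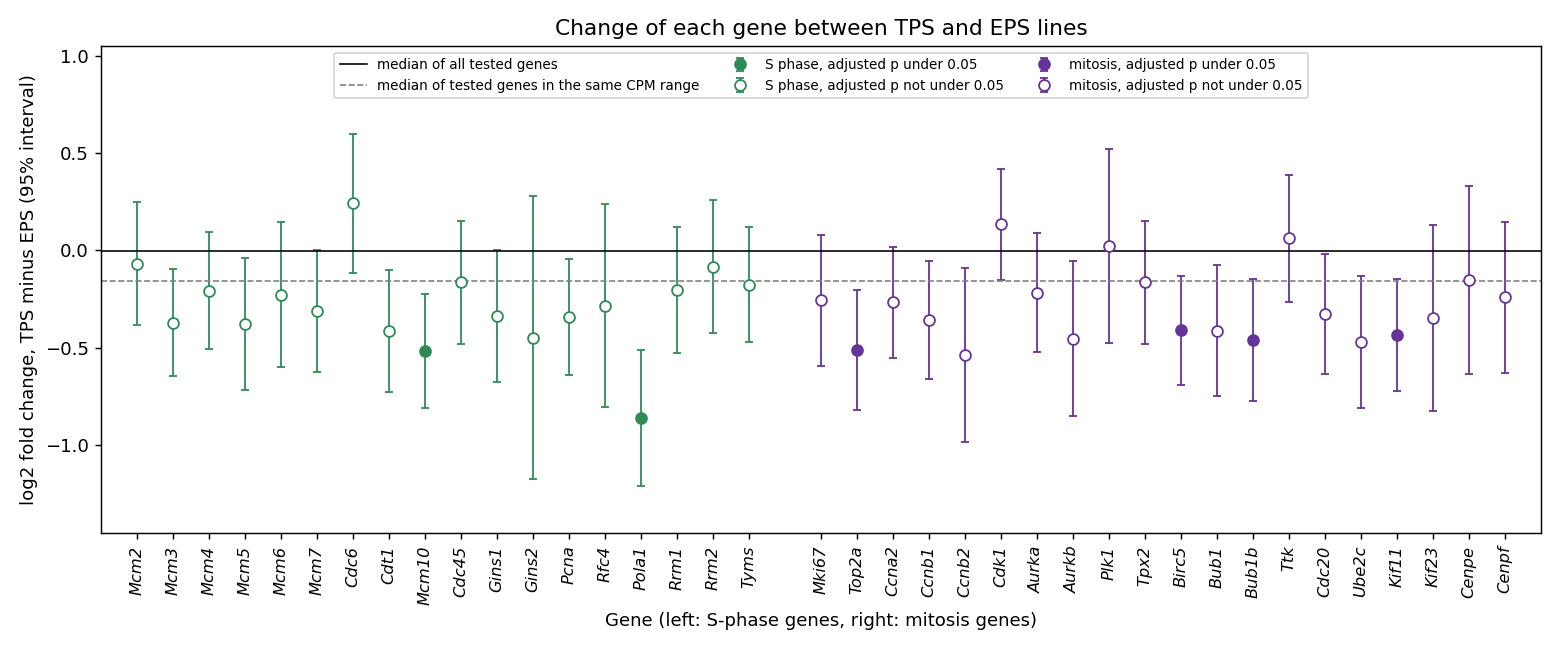
Log2 fold change of each gene, TPS minus EPS, with its 95% interval, for S-phase genes (green) and mitosis genes (purple); filled points passed the threshold, and lines mark the median of all tested genes and of genes in the same range of level. Pola1 stands lowest at -0.86, and 34 of 38 points lie below 0.

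Cyclins and their kinase drive entry into mitosis. Ccnb2 had the largest change among the cyclins, with a log2 fold change of -0.54 and an adjusted p of 0.085. Ccnb2 had 75.8, 118 and 91.4 CPM in the TPS lines (1 to 3) and 160.2, 133 and 121 CPM in the EPS lines (1 to 3). Every TPS line was below every EPS line, but TPS line 2 lay just under EPS line 3. Ccnb1 (284, 287 and 290.2 CPM in TPS lines and 361, 326 and 416 CPM in EPS lines) and Ccna2 (156, 181 and 163 CPM in TPS lines and 201, 188 and 212 CPM in EPS lines) were separated in the same direction, with log2 fold changes of -0.36 and -0.27. Cdk1 is the kinase that these cyclins activate. The Cdk1 levels were 160, 174 and 152 CPM in TPS lines 1 to 3 and 158, 138 and 147 CPM in EPS lines 1 to 3. Its highest line was TPS line 2 and its lowest was EPS line 2, the groups overlapped, and its log2 fold change was 0.13 (95% interval -0.15 to 0.42).

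Among the mitotic kinases and spindle regulators, Birc5, which encodes survivin, the subunit that places the Aurora B kinase complex at centromeres, fell. Birc5 was measured at 85.2, 96.9 and 93.1 CPM in TPS lines 1, 2 and 3 and at 131, 117 and 118 CPM in EPS lines 1, 2 and 3. All TPS lines were below all EPS lines, and Birc5 (ENSMUSG00000017716.15, chr11:117849251-117855743, GRCm38) was 24.7% lower, with a log2 fold change of -0.41 (SE 0.12, adjusted p = 0.047), a call kept under 2 of 10 other settings. Aurkb, the kinase of that complex, was measured at 58.3, 81.4 and 73.3 CPM in TPS lines and 92.8, 113 and 86.1 CPM in EPS lines, with no overlap and a log2 fold change of -0.45 (adjusted p = 0.097). Aurka, Tpx2 and Plk1 overlapped between the groups. Aurka, the spindle pole kinase, and Tpx2, its activator, had log2 fold changes of -0.22 and -0.16. Plk1, the Polo kinase, spread widely in both groups. In TPS lines 1 to 3 the level of Plk1 was 93.5, 139 and 125 CPM, and in EPS lines 1 to 3 it was 87.3, 131 and 133 CPM. Line 1 of each group was its lowest, and the log2 fold change of 0.02 had an interval from -0.47 to 0.52.

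The spindle checkpoint holds cells in mitosis until every chromosome is attached. Bub1b had 174, 171 and 140.3 CPM in the TPS lines (1 to 3) and 234, 206 and 227 CPM in the EPS lines (1 to 3). Bub1b encodes BubR1, an inhibitor of the anaphase-promoting complex (APC/C) in this checkpoint, and its TPS lines were all below its EPS lines. Bub1b (ENSMUSG00000040084.9, chr2:118598211-118641591, GRCm38) was 27.3% lower in TPS cells, with a log2 fold change of -0.46 (SE 0.14, adjusted p = 0.047), a call kept under 4 of 10 other settings. The related kinase Bub1 was measured at 130.2, 145 and 108 CPM in TPS lines and 173, 158 and 178 CPM in EPS lines, again without overlap, and its log2 fold change was -0.41 (adjusted p = 0.080). Ttk, the MPS1 kinase that starts the checkpoint, overlapped between the groups at 56.5, 47.0 and 47.4 CPM in TPS lines and 47.5, 44.97 and 52.0 CPM in EPS lines, and its log2 fold change was 0.06 (95% interval -0.27 to 0.39).

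Cdc20 activates the APC/C and Ube2c is its ubiquitin-conjugating enzyme, so that both are needed to leave mitosis. Both had every TPS line below every EPS line. The Ube2c levels were 135, 172 and 166 CPM in TPS lines 1 to 3 and 194, 229 and 233 CPM in EPS lines 1 to 3. The log2 fold change of Ube2c was -0.47 with an adjusted p of 0.055, just above the threshold. Cdc20 was measured at 190.4, 232 and 210.5 CPM in TPS lines and 253, 250 and 291 CPM in EPS lines, with a log2 fold change of -0.33 (adjusted p = 0.12).

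Kif11 is the motor that pushes the spindle poles apart. Kif11 was measured at 126, 123 and 125 CPM in TPS lines 1, 2 and 3 and at 152, 168 and 187 CPM in EPS lines 1, 2 and 3. The TPS lines were nearly equal, and all EPS lines were above them. Kif11 (ENSMUSG00000012443.4, chr19:37376403-37421859, GRCm38) was 25.9% lower in TPS cells, with a log2 fold change of -0.43 (SE 0.12, adjusted p = 0.044), a call kept under 2 of 10 other settings. Kif23, a motor of the central spindle, and the kinetochore proteins Cenpe and Cenpf had log2 fold changes of -0.35, -0.15 and -0.24, and all 3 overlapped between the groups. In TPS lines 1 to 3 the level of Cenpe was 71.5, 69.5 and 71.5 CPM, and in EPS lines 1 to 3 it was 55.7, 80.3 and 100.4 CPM. The TPS lines fell inside the range of the EPS lines, which spread from the lowest to the highest value of the gene.

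Most of the 6 calls depended on the processing and on having all lines. Under the 10 other settings, the call was kept in 10 for Pola1, 8 for Mcm10, 7 for Top2a, 4 for Bub1b, 2 for Birc5 and 2 for Kif11, and the highest adjusted p was 0.16 for Birc5 and 0.18 for Kif11. Among these settings, the fit with the 12 libraries as separate samples kept all 6 calls, but it takes technical replicates as independent. Apart from that fit, Birc5 and Kif11 were kept only with RLE scaling factors. DESeq2 kept Pola1, Mcm10 and Top2a. Leaving out each line in turn, the call was kept in 6 of 6 fits for Pola1, in 2 of 6 for Mcm10, in 1 of 6 for Top2a and for Kif11, and in 0 of 6 for Birc5 and for Bub1b, while the log2 fold changes in these fits stayed between -0.46 and -0.36 for Birc5, -0.53 and -0.37 for Bub1b and for Kif11, and -0.61 and -0.43 for Top2a. The number of the 38 genes called lower was 1, 2 and 1 without TPS line 1, 2 or 3 and 5, 2 and 1 without EPS line 1, 2 or 3. Ccnb2 passed the threshold without TPS line 2, and Ube2c passed it without EPS line 1. The median log2 fold change of the S-phase genes was -0.17 without EPS line 1 and -0.40 without EPS line 2, and that of the mitosis genes stayed between -0.39 and -0.27.

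The lines of a group did not carry the same profile. Summed over the 18 S-phase genes, TPS lines 1, 2 and 3 had 3901, 4272 and 3933 CPM and EPS lines 1, 2 and 3 had 5243, 4551 and 4814 CPM. Over the 20 mitosis genes the sums were 2981, 3278 and 3012 CPM in TPS lines and 3696, 3991 and 4052 CPM in EPS lines. On the TMM scale every TPS line was below every EPS line for both sums. With library size alone as the scaling, TPS line 2 lay above the lowest EPS line for both sums. TPS line 2 was the highest of the TPS lines, as it was in 23 of the 38 single genes.

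The balance of the phases varied more among EPS lines than between the groups. The S-phase sum divided by the mitosis sum was 1.31, 1.3 and 1.31 in TPS lines and 1.42, 1.14 and 1.19 in EPS lines, so the TPS lines lay within the range of the EPS lines. EPS line 1 was the highest EPS line in 13 of 18 S-phase genes and the lowest in 8 of 20 mitosis genes. EPS line 2 was the lowest EPS line in 13 of 18 S-phase genes and in 9 of 20 mitosis genes, and EPS line 3 was the highest in 12 of 20 mitosis genes. The technical replicates kept this order of the ratio, with 1.39 and 1.44 in EPS line 1, 1.15 and 1.13 in EPS line 2, and 1.17 and 1.21 in EPS line 3. Between technical replicates, the median absolute log2 difference over the 38 genes was 0.04 to 0.06 in 5 lines and 0.14 in EPS line 3.

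**Figure D3:**
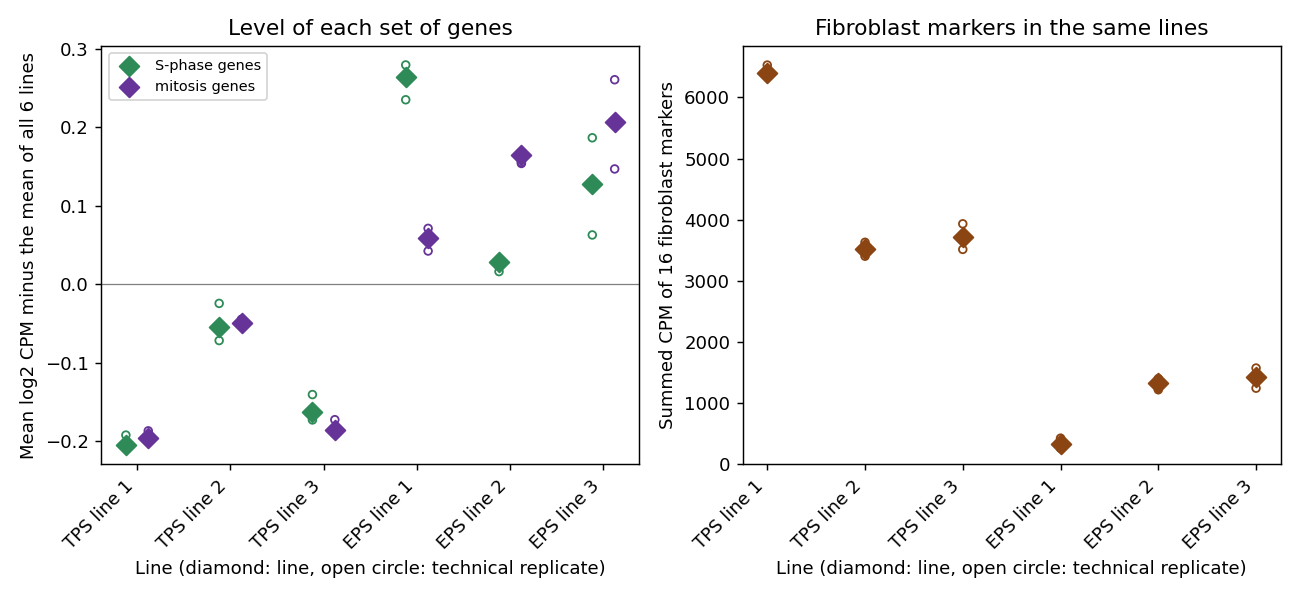
Left, mean log2 CPM on the TMM scale of the S-phase genes (green) and the mitosis genes (purple) in each line, relative to the mean of all 6 lines. Right, summed CPM of 16 fibroblast markers in the same lines. Diamonds are lines and open circles their technical replicates. All TPS lines lie below 0 and all EPS lines above it in the left panel, while fibroblast markers run from 3515 to 6391 CPM in TPS lines and from 334 to 1423 CPM in EPS lines.

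Markers of other cells moved between the groups too. The 16 fibroblast markers (collagen genes, Postn, Pdgfra, Pdgfrb, Thy1, Dcn, Lum, Twist2 and Prrx1) summed to 6391, 3515 and 3716 CPM in TPS lines and to 334, 1331 and 1423 CPM in EPS lines. Of these, 10 of 16 rose, all 16 had log2 fold changes above 0, with a median of 2.00, and none was at 0 in any group. TPS line 1 had the highest fibroblast sum and the lowest sums of both phases, and EPS line 1 had the lowest fibroblast sum, the highest S-phase sum and, of the EPS lines, the lowest mitosis sum. The part of feeder RNA in the lower levels of replication and mitosis genes was not tested. Pluripotency markers summed to 3635 to 4107 CPM in TPS lines and 6367 to 7922 CPM in EPS lines, with 5 of 10 lower, and genes of the 2-cell stage summed to 263 to 356 CPM in TPS lines and at most 0.16 CPM in EPS lines, with 8 of 8 higher. Trophectoderm markers summed to 145, 623 and 219.8 CPM in TPS lines 1 to 3 and to 167, 185 and 106 CPM in EPS lines 1 to 3, with 2 of 7 tested markers higher. The sum of TPS line 2, the TPS line with the highest phase sums, was carried by the keratins Krt8 (243 CPM) and Krt18 (198 CPM). Primitive endoderm markers summed to 106 to 142 CPM in TPS lines and 138 to 194 CPM in EPS lines, with 4 of 8 higher, 1 lower (Lama1) and a median log2 fold change of 1.93. Lama1, at 38.4 CPM in TPS and 136 CPM in EPS lines on average, made up most of the EPS sum, and Pdgfra stands in both this list and the fibroblast list. The part of these cell types in the values of the 38 genes was not tested. Library totals ran from 13676051 to 21821707 counts, and the 38 genes had between 456 and 18725 counts in single libraries.

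Other genes of the same machinery came from lists of 56 further replication genes and 69 further mitosis genes. They were called lower at shares near that of genes in the range of level of the 38 genes. Among the replication genes 7 fell (12.5%) and 2 rose, with a median log2 fold change of -0.22, and among all tested genes 7.34% fell and 14.4% rose. Genes in the range of level of the 38 genes had a median of -0.15, and of these 5139 genes 675 fell (13.1%) and 316 rose. Rnaseh2a, a subunit of the enzyme that removes RNA from DNA, changed most. Rnaseh2a had 55.5, 62.3 and 54.9 CPM in the TPS lines (1 to 3) and 136, 87.8 and 93.6 CPM in the EPS lines (1 to 3). It was lower in every TPS line, with a log2 fold change of -0.88 (SE 0.19, adjusted p = 0.017). Mtbp, Orc5 and Dbf4, which act in origin recognition or firing, fell by 0.70, 0.60 and 0.58 on the log2 scale. Leaving out 1 line in turn, the calls were kept in 4 of 6 fits for Rnaseh2a, 3 for Mtbp, 5 for Orc5 and 1 for Dbf4.

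The replication genes that rose were Dut and Ticrr. Dut encodes the dUTPase that keeps uracil out of DNA. The Dut levels were 254, 259.6 and 215 CPM in TPS lines 1 to 3 and 147, 117 and 179.6 CPM in EPS lines 1 to 3. Its log2 fold change was 0.72 (SE 0.18, adjusted p = 0.028), with no overlap. Ticrr encodes Treslin, the partner of Mtbp in origin firing, and so these partners moved in opposite directions. Ticrr was measured at 146, 126 and 162 CPM in TPS lines 1, 2 and 3 and at 80.7, 92.4 and 111 CPM in EPS lines 1, 2 and 3. Its log2 fold change was 0.61 (SE 0.16, adjusted p = 0.035). With 1 line left out in turn, the calls were kept in 1 of 6 fits for Dut and 2 of 6 for Ticrr.

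Among the further mitosis genes 9 fell and 1 rose, with a median log2 fold change of -0.25, and 37 of 69 had every TPS line below every EPS line (53.6%, beside 19.1% of all tested genes and 29.7% in that range of level). Spc24, a subunit of the NDC80 kinetochore complex, changed most. In TPS lines 1 to 3 the level of Spc24 was 41.9, 51.4 and 49.1 CPM, and in EPS lines 1 to 3 it was 122, 89.5 and 79.2 CPM. Spc24 was 51.1% lower, with a log2 fold change of -1.03 (SE 0.19, adjusted p = 0.0103). Nusap1, a spindle microtubule protein, Pkmyt1, the kinase that holds Cdk1 inactive, and Kif18a, a motor that damps chromosome movement, fell by 0.94, 0.82 and 0.72 on the log2 scale. Pbk, a mitotic kinase, was the gene that rose. Pbk had 54.3, 45.9 and 44.9 CPM in the TPS lines (1 to 3) and 35.7, 30.8 and 32.9 CPM in the EPS lines (1 to 3). Its log2 fold change was 0.55 (SE 0.15, adjusted p = 0.035). The calls of Spc24, Nusap1 and Pkmyt1 were kept in 6 of 6 fits that left out a line and under all 10 other settings, that of Kif18a in 3 of 6 such fits and that of Pbk in 0 of 6. Over both lists, 16 of 125 genes fell, which is 12.8%, beside 7.34% of all tested genes and 13.1% in the range of level of the 38 genes, although some of the 125 lie below that range, and between 5 and 10 fell when a line was left out.

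The factors that drive both waves were taken from a list of 21 E2F, RB and MuvB regulators. Their median log2 fold change was -0.23. At an unadjusted p under 0.05 in edgeR's test, for which no background was counted, 4 were lower and 2 higher. At an adjusted p under 0.05 in that test, 2 fell and 0 rose. The 2 genes are 9.52% of the list, near the 7.34% of all tested genes and the 13.1% of genes in the range of level of the 38 genes that fell. The Mybl2 levels were 533, 494 and 594 CPM in TPS lines 1 to 3 and 1168, 1055 and 1109 CPM in EPS lines 1 to 3. Mybl2 encodes B-MYB, the partner of MuvB at mitosis genes, and every TPS line was below every EPS line. Mybl2 (chr2:163054687-163084688, GRCm38) was 51.4% lower in TPS cells (95% interval 40.1% to 60.5%), with a log2 fold change of -1.04 (SE 0.13, adjusted p = 0.0032), a value below that of each of the 38 genes. Its call was kept under all 10 other settings and in 6 of 6 fits that left out a line, with a highest adjusted p of 0.015. E2f4, an E2F that binds with RB-family proteins and MuvB as a repressor in resting cells, was measured at 121, 148 and 161 CPM in TPS lines and 198, 196 and 221 CPM in EPS lines. Its log2 fold change was -0.52 (SE 0.14, adjusted p = 0.041), and its call was kept in 0 of 6 fits that left out a line.

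The 3 motifs were counted in the promoter windows of the genes, of which 32 of 38 matched the RefSeq table by symbol, 15 in S phase and 17 in mitosis. An E2F motif was found in 7 of 15 S-phase windows (46.7%) and in 1 of 17 mitosis windows (5.88%, Cdk1), beside 2.26% of all 32851 windows. A CHR motif was found in 14 of 17 mitosis windows (82.4%) and in 3 of 15 S-phase windows (20%), beside 19.2% of all windows. The CCAAT box was found in 16 of 17 mitosis windows (94.1%) and 11 of 15 S-phase windows (73.3%), beside 37.4% of all windows. In the further mitosis genes, 61.0% of 59 windows held a CHR motif, and in the further replication genes 26.1% of 46 windows held an E2F motif. A match describes these letters in the window, and no binding was measured.

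**Figure D4:**
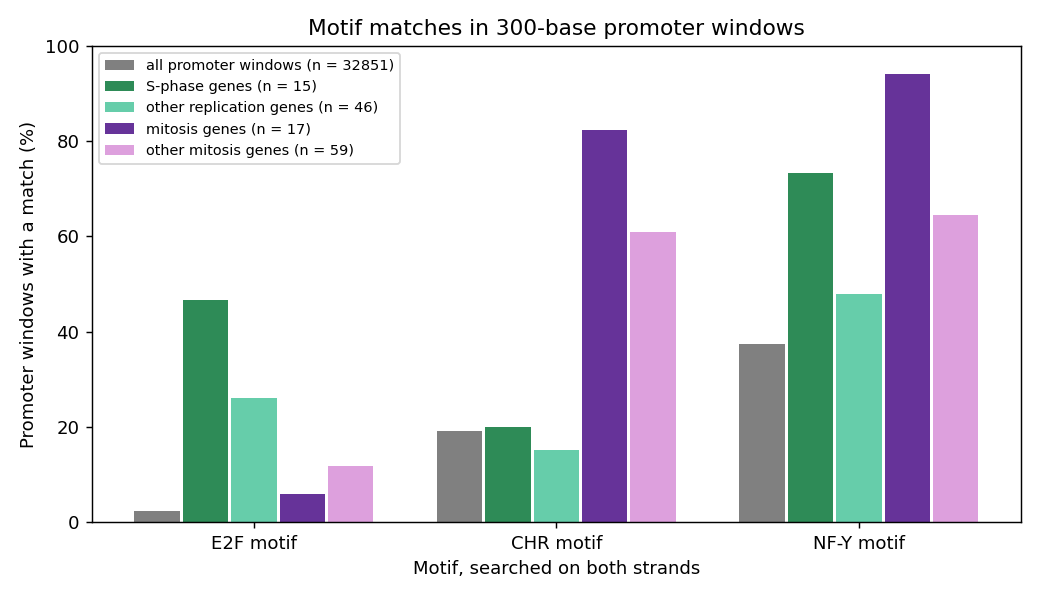
Share of 300-base promoter windows with at least 1 match to each motif on either strand, for all windows, the S-phase and mitosis genes described here and the further genes of both phases (n in the legend). E2F motifs are most frequent in S-phase genes (46.7%) and CHR motifs in mitosis genes (82.4%).

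The fold changes were also set beside the motifs. Over both phases, the median log2 fold change was -0.34 for the 8 genes with an E2F motif and -0.31 for the 24 without, -0.31 for the 17 with a CHR motif and -0.34 for the 15 without, and -0.33 for the 27 with a CCAAT box and -0.28 for the 5 without. Within S phase the medians lay further apart, at -0.37 for the 7 genes with an E2F motif and -0.19 for the 8 without, and at -0.16 for the 3 with a CHR motif and -0.31 for the 12 without. Genes with a motif also spread over the whole range, since the S-phase genes with an E2F motif ran from Pola1 at -0.86 to Cdc6 at 0.24. These are descriptions with no test.

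**Figure D5:**
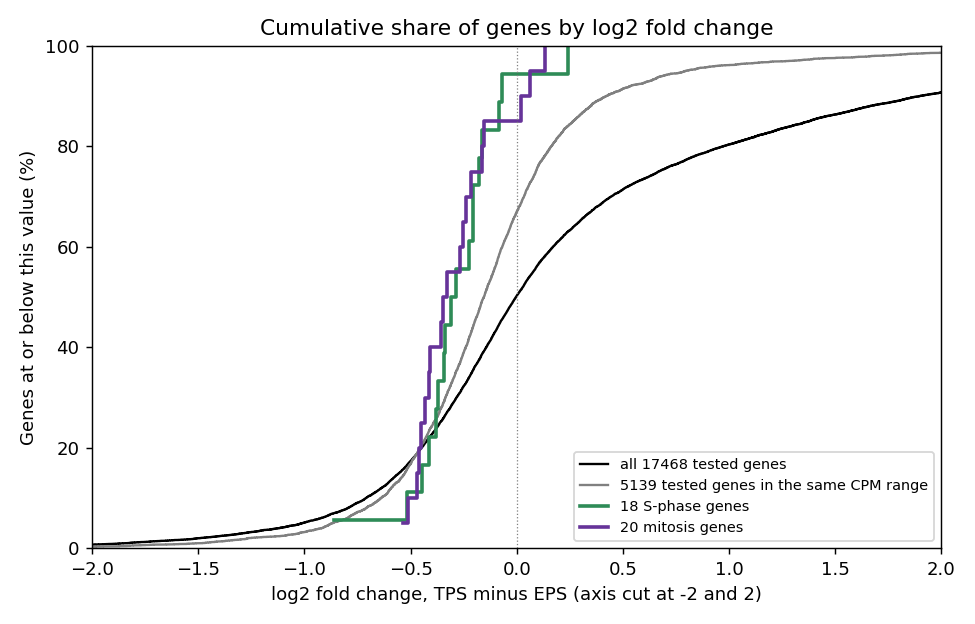
Cumulative share of genes by log2 fold change, TPS minus EPS, for the 18 S-phase genes, the 20 mitosis genes, 5139 tested genes in the same range of level and all 17468 tested genes. The curves of both sets rise together, around medians of -0.30 and -0.34, and are steeper than those of the other genes.

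Per length, the order of levels was led by Pcna at 437 TPM, Rrm2 at 387 TPM, Cdc20 at 334 TPM and Mcm3 at 315 TPM, as means of the 6 lines. Cenpf at 17.8 TPM, Cenpe at 23.0 TPM and Ttk at 26.5 TPM were lowest. The order mixed both phases, with 3 S-phase genes and 1 mitosis gene among the first 4. TPM values here were used only to order genes, since they carry no correction for composition between libraries. With library size alone in the test, the fold changes over all tested genes had a median of 0.14 on the log2 scale, and the medians of the S-phase and mitosis genes were -0.29 and -0.33 relative to it, close to those with TMM factors by construction, since a change of scaling shifts all genes about alike. With DESeq2 the medians were -0.31 for S-phase genes and -0.35 for mitosis genes, beside 0.20 over all genes of that fit. Relative to all genes of that fit they were -0.50 and -0.54. The DESeq2 fit had no filter on low counts. In edgeR's fit without a filter the median over all genes was 0.18, and the 2 sets were also at -0.50 and -0.54 relative to it.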

How the data were processed

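RNA-seq counts of 12 libraries (3 TPS and 3 EPS lines, 2 technical replicates each) were used. The authors trimmed reads with fastp 0.19.7, mapped them to GRCm38.p6 with STAR 2.7.3a and deposited raw counts per gene without normalization. The counter, its annotation and its use of strand are not given in the sources used here, so reads of overlapping and near-identical genes could have been shared. Gene identifiers were matched without version to GENCODE M21 (55141 of 55401).

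Libraries were assigned to line and replicate by their labels. Counts of technical replicates were summed, after a chi-square test had found a difference beyond sampling noise in every pair (chi-square per degree of freedom 2.58 to 22.3). The 6 lines were tested with edgeR 4.0.16 in R 4.3.3 (glmQLFit and glmQLFTest, TMM factors, filterByExpr), with p-values adjusted by Benjamini-Hochberg over 17468 genes and a threshold of 0.05. P-values measure the spread between lines. CPM values use TMM-scaled library sizes, and TPM values divide by merged exon length. Standard errors are the log2 fold change divided by the square root of F. The fit was tested on simulated data. Alternatives were DESeq2 1.42.0, other scaling factors, filters and uses of the replicates, a replicate block, and leaving out each line.

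The 38 genes and all gene lists were chosen with earlier results of these data known. The text names all 38 genes and, of each further list of pathway genes, up to 4 called genes of largest change in each direction. Marker genes were used as sums. Near-identical transcripts (at least 95% identity over at least 50% of the longest transcript) were found with blastn 2.17.0. Promoter windows came from a RefSeq table, with the first window used where a gene had several.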

Additional observations from a re-analysis of the deposited data

How the results depend on the processing

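With 6 of 38 genes lower (2 of 18 S-phase, 4 of 20 mitosis) as the base, the count lower was 3 with DESeq2, upper quartile factors or a filter of CPM of at least 1 in 3 lines, with 1 mitosis gene each. It was 2 with technical replicate 1 alone, with 0 mitosis genes, and 1 with library size alone, with 1 S-phase and 0 mitosis genes and medians of -0.15 and -0.19. Mitosis genes lower were 2 without a filter and with technical replicate 2 alone. RLE factors gave 6 again. With the 12 libraries as separate samples, a fit that takes technical replicates as independent, 19 fell (8 and 11) and 1 rose, Cdc6 in S phase. In that fit 61 of the further genes fell and 8 rose, and 9 regulators fell. The share of all tested genes called was not counted for this or the other alternative fits. Their counts therefore have no background beside them and are not results about the 38 genes.

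Among the further genes (16 lower, 3 higher), 6 fell with library size alone. Of the regulators (2 lower), 1 fell with upper quartile factors, library size alone or technical replicate 2 alone. Leaving out a line, 1 to 5 genes fell (1 to 2 S-phase, 0 to 3 mitosis), 5 to 10 further genes fell and 0 to 2 rose, 1 regulator fell, and the S-phase median ran from -0.40 to -0.17.

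With the line number as a replicate block, 1 gene fell, Pola1 (1 S-phase, 0 mitosis), and 7 further genes fell, 1 rose and 1 regulator fell. Lines of the same number did not deviate together (mean r -0.02, from -0.12 to 0.04, over genes), so the numbers were not taken as pairs.

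Single genes that changed sign lay near 0. With library size alone, Mcm2 was at 0.0795 and Rrm2 at 0.0638, and without a filter Plk1 was at -0.00611. Leaving out a line, Plk1 ran from -0.18 to 0.17, Ttk from -0.0308 to 0.11, Rrm2 from -0.18 to 0.0354 and Cenpe from -0.38 to 0.0449. The causes of these shifts were not tested. The lowest count of any of the 38 genes in a library was 456, and the SE of single genes ran from 0.12 to 0.31. Besides Gins2 and Pcna, reads of Ccnb1 and Mcm7 may be shared with near-identical pseudogenes of low count. Reads may also be shared with genes on the opposite strand for Rfc4 (12.7% of exon bases under Eif4a2), Ccna2 (12.5% under Exosc9) and Ube2c (22.8% under Tnnc2). The same holds for Mcm7 (7.25% under Ap4m1 and 1.45% under Cops6), Plk1 (7.09%), Cdc45 (5.96%) and Cdc20 (2.84%). Over all libraries Eif4a2 had 88917 counts, Cops6 29964, Exosc9 9865, Ap4m1 2227 and Tnnc2 2. Rfc4 had only 456 to 940 counts in single libraries, so its values are uncertain if strand was not used in counting.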
